A study of Lens culinaris with 18 samples.

Results

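The 150 transcripts described here were raised by water deficit in lentil root at 24 h and lowered by it at 96 h. They were chosen by their measured root values among 124151 assembled transcripts. A member needed a mean of at least 5 over the 8 root libraries and of at least 2 over the 8 leaf libraries. With 1 added to every value, its lower drought library at 24 h lay at least 1.5 times above the higher control library, and its higher drought library at 96 h lay at or below 0.6 times the lower control library. The ratio of drought to control means had to exceed 2 at 24 h and stay under 0.5 at 96 h. Of 12320 transcripts that passed both minimum means, 1754 met the 24 h condition (14.2%), 1727 met the 96 h condition (14.0%) and 227 met both (1.84%). The 150 with the largest product of rise and fall were kept. The root contrasts therefore describe the choice, and only leaf was tested.

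The plants were wild-type lentil seedlings (Lens culinaris, cultivar Sultan) moved at 7 days of age from perlite to an aerated hydroponic culture. Control plants stayed in Hoagland's nutrient solution. Drought plants received the same solution with 15% polyethylene glycol (PEG) 6000, a polymer that lowers the water potential outside the root. Root and leaf were taken at 24 h and 96 h, which gives 8 groups of 2 biological replicates per the labels. The number of plants behind a library is not given in the sources used here.

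Roots meet water deficit first, and in plants generally they answer it with the hormone abscisic acid, with compatible solutes and with changed growth. Part of such a response is early and passes, and part is built up as the deficit lasts. Leaves are reached later, through hydraulic and hormonal signals, and close their stomata. The identifiers are those of an assembly made without a genome and the deposited table does not pair them with gene names, so no function is given for any member, and the tissue labels were not checked against marker genes.

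Values are TMM-scaled TPM, that is, reads divided by transcript length, scaled to 1000000 per library and multiplied by 1 factor per library, so that they can be compared between transcripts. Read depth is unknown. Library totals lay between 514669 and 943452 in 13 libraries and between 5832574 and 6997679 in 3, which are root 24 h control replicate 2 and both leaf 96 h drought libraries. In those 3 libraries 76.3% to 92.4% of the total belonged to 3 identifiers of 1 assembly component, TRINITY_DN47470_c0, which the choice of members leaves out. Replicate 1 of the root 24 h controls held 23.3% of it, and no other library held more than 0.0991%. The same 3 libraries list fewer transcripts above 0, between 23194 and 24351, than the others, which list 44724 to 75080. In bulk tissue, fewer cells of a type and less RNA per cell cannot be told apart.

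In root the median member moved between a pair of levels, which single members need not share. The median member stood at 7.92 and 5.69 in the 24 h controls and at 30.6 and 28.7 in the 24 h drought libraries. It stood at 32.3 and 31.9 in the 96 h controls and at 8.36 and 8.46 in the 96 h drought libraries. Drought at 24 h and control at 96 h were thus the high groups, and control at 24 h and drought at 96 h the low ones. Summed over the members, the 24 h controls held 2956 and 2663 and the 24 h drought libraries 12678 and 11197, while the 96 h controls held 10098 and 10136 and the 96 h drought libraries 2505 and 2667.

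**Figure D1:**
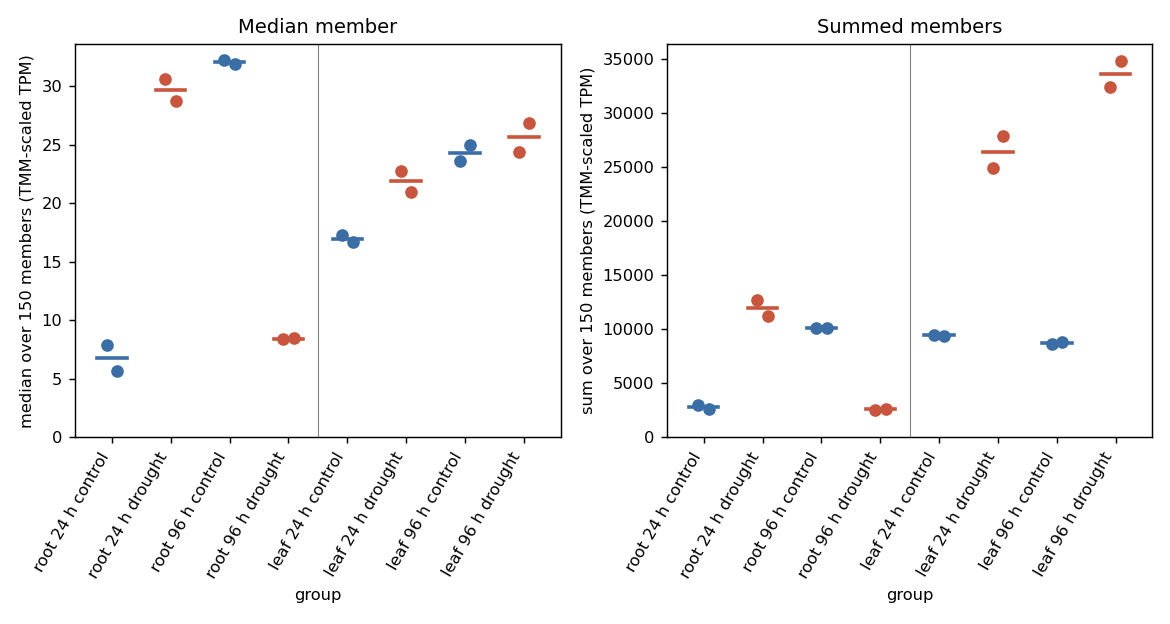
Level of the 150 members in each library, as the median member (left) and as the sum (right), in TMM-scaled TPM. Points are libraries, bars are means of 2 libraries, blue is control and red is drought. In root the median lay between 5.69 and 8.46 in the 24 h controls and 96 h drought libraries and between 28.7 and 32.3 in the other 4.

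The rise at 24 h, on values plus 1, had a median of 3.74-fold and ran from 2.01-fold to 24.1-fold, with 20 members at or above 8-fold. The fall at 96 h had a median of 3.35-fold and ran from 2.00-fold to 339-fold, with 12 members at or above 8-fold. The rise was the larger of the 2 in 79 members and the fall in 71. Across the 150 members the sizes of rise and fall had a Spearman rho of −0.14, given as a description of transcripts that were chosen on both. Most members were of middling abundance: 31 had a root mean under 10, 108 lay between 10 and 100, and 11 reached 100.

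The low level at 24 h rested on a pair of control libraries that differed. Replicate 2 was the lower one for 97 members and replicate 1 for 52. Replicate 2 listed 27 members at 0, against 2 in replicate 1. Against replicate 1 alone the median rise was 3.32-fold, and against replicate 2 alone it was 4.77-fold. The whole choice could be repeated without either library: 447 transcripts met it without replicate 1 and 232 without replicate 2, against 227 with both. Leaving out a control library can only loosen the limit set by the higher control. These counts thus do not show how far the members depend on either library. Replicate 2 was also the root library dominated by TRINITY_DN47470_c0. The part of this in the result was not tested. With that component removed and libraries brought to the same total, 100 of the 150 members still met every condition, and with median-ratio size factors 133 did.

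In root the members also differed between the times within each treatment. Both 96 h controls lay above both 24 h controls in 136 of 150 members, a median log2 ratio of 2.15, against 44.9% of the 12320 transcripts at the level minimums and a median of 0.20. Both 24 h drought libraries lay above both 96 h drought libraries in 137, a median of 1.58, against 38.8% and −0.03. These contrasts use the libraries that chose the members and are given without a test. The parts of the choice, of time and of TRINITY_DN47470_c0 in the 24 h controls were not tested. Between the high groups, 96 h control against 24 h drought, the median log2 ratio was 0.19, with a middle range of −0.78 to 0.97. The 96 h controls lay wholly above the 24 h drought libraries in 73 members and wholly below them in 60, each against 43.4% at the level minimums. These groups were thus apart in most members, but also in most transcripts at the level minimums, so this was not particular to the members. There was no common direction. Between the low groups, 96 h drought lay wholly above the 24 h control in 66 members (44.5% at the level minimums) and wholly below it in 28 (16.5%), with a median log2 ratio of 0.27 for members and 0.27 for transcripts at the minimums.

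**Figure D2:**
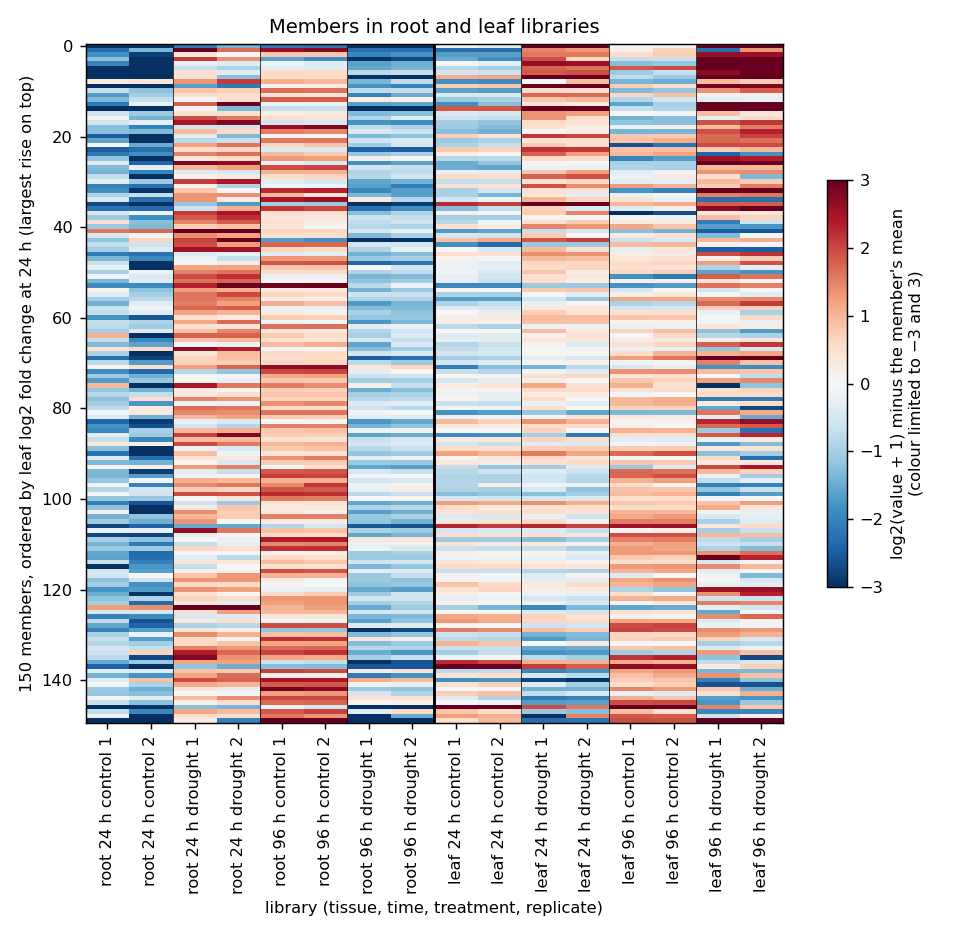
Each row is 1 of the 150 members and each column 1 library. Colour is log2(value + 1) minus the member's mean over the 16 libraries, and rows are ordered by the leaf fold change at 24 h. The root columns show the chosen pattern, in which 136 members had both 96 h controls above both 24 h controls, while leaf columns at 96 h of drought differ from row to row.

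TRINITY_DN46154_c0_g1 ranked first. In root it was at 1.07 and 0 in the 24 h controls, at 24.5 and 4.25 in 24 h drought, at 410 and 409 in the 96 h controls and at 0.237 and 0.182 in 96 h drought. Its 24 h drought libraries were far apart, and its fall at 96 h, 339-fold on values plus 1, was far larger than its rise, 10.0-fold. TRINITY_DN40073_c0_g2 ranked second, at 0 and 0.875 in the 24 h controls and 36.8 and 14.8 in 24 h drought. It reached 28.4 and 31.6 in the 96 h controls and was listed at 0 in both 96 h drought libraries, the only member listed at 0 in both. Another identifier of its component, TRINITY_DN40073_c0_g1, went the other way in root. That one was at 58.2 and 43.4 in the 24 h controls and 26.9 and 36.4 in drought. At 96 h it was at 25.0 and 20.9, then 69.8 and 61.9. Reads may be divided between the pair, which was not tested.

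The most abundant member in root, TRINITY_DN48541_c1_g2, changed less. It was at 990 and 924 in the 24 h controls and 3135 and 2358 in 24 h drought, then at 1592 and 1630 in the 96 h controls and 558 and 603 in 96 h drought. That its groups did not overlap at either time was required by the choice, as for every member. TRINITY_DN46314_c6_g1 had the second highest root mean, at 55.0 and 21.2 in the 24 h controls, 701 and 218 in 24 h drought, 763 and 787 in the 96 h controls and 47.4 and 52.7 in 96 h drought.

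At the edge of the choice, the last member taken, TRINITY_DN49382_c2_g1, rose 2.50-fold at 24 h and fell 2.91-fold at 96 h on values plus 1, a product of 7.28. In leaf it was at 29.6 and 28.2 in the 24 h controls and 105 and 97.7 in drought (log2 fold change 1.78, SE 0.19, limma adjusted p = 0.00174). The first transcript left out, TRINITY_DN48242_c0_g1, rose 2.23-fold and fell 3.25-fold, a product of 7.23.

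In leaf the choice used only the minimum mean of 2. All 150 members passed the filter of the leaf test, for which 2 of the 8 leaf libraries had to reach 1. Leaving out any 1 leaf group kept the leaf mean at 2 or more in 144 of them. The other 6 reached it through 1 group, 3 through the 96 h controls and 3 through 96 h drought, and were bound to be high there. Leaf effects are log2 fold changes of value plus 1, and "rose" and "fell" are kept for members whose limma adjusted p, over 28176 tested transcripts, was under 0.05.

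At 24 h of PEG, members tended to be higher in leaf too. There 59 members rose, 39.3% of 150, against 11.2% of all tested transcripts and 15.4% of those at the level minimums. Another 20 members fell, or 13.3%, against 15.9% and 15.7%. The median log2 fold change of the members was 0.50, with a middle range of −0.17 to 1.08, and it was −0.02 over all tested transcripts. Of the rises 38 were at least 2-fold, 25.3% of the members against 6.49% of all tested, and of the falls 12, 8.00% against 11.3%. The counts moved with single libraries, the median less so. When leaf 24 h control 1 was left out, the member median was 0.48, and when control 2 was, 0.54, each against 0.00 over all tested transcripts. Leaving out leaf 24 h drought 1 gave 39 rises, against 7.38% of all tested. Leaving out either 96 h drought library gave 77, against 20.7% and 20.8%. The member median stayed between 0.42 and 0.59 when any 1 of the 24 h leaf libraries was left out. The member median stood at 17.3 and 16.7 in the leaf controls and at 22.8 and 21.0 in drought, which do not overlap.

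TRINITY_DN45077_c0_g1 had the largest rise in leaf at 24 h. It was at 71.3 and 60.2 in the controls and at 2897 and 4379 in drought, so that the groups lay far apart (log2 fold change 5.74, SE 0.21, limma adjusted p = 0.000106). In root it was a low transcript, at 0.987 and 3.38 in the 24 h controls and 17.0 and 28.0 in drought. TRINITY_DN23433_c0_g1 followed, from 14.1 and 14.2 to 141 and 140 (log2 fold change 3.22, SE 0.09, limma adjusted p = 5.56e-05).

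Some members that rose in root fell in leaf at the same time. TRINITY_DN46154_c0_g1, first in the ranking, was at 30.6 and 41.7 in the leaf controls and at 3.58 and 3.76 in drought (log2 fold change −2.98, SE 0.16, limma adjusted p = 0.000275). TRINITY_DN35247_c0_g1 was at 422 and 506 in the leaf controls and at 151 and 117 in drought (log2 fold change −1.79, SE 0.24, limma adjusted p = 0.00385). In root this transcript was at 1.11 and 0 in the 24 h controls and 15.7 and 14.0 in drought, well under its leaf level in every group. The difference between the tissues' responses was not tested, because the root values chose the members.

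At 96 h the leaf divided the members. At the deposited scaling 59 rose (39.3%) and 64 fell (42.7%), against 16.9% and 42.2% of all tested transcripts and 16.6% and 49.1% of those at the level minimums. The share that fell was thus near the background and the share that rose was above it. The median log2 fold change was −0.23 with a middle range of −1.50 to 1.59, against −0.59 over all tested. Of these, 50 rises were at least 2-fold, 33.3% of the members against 13.2% of all tested, and 48 falls, 32.0% against 34.6%.

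The balance at 96 h turned with the scaling. Both drought libraries were dominated by TRINITY_DN47470_c0, whose part in this was not tested. With median-ratio size factors 69 members rose and 44 fell, 46.0% and 29.3%, against 23.7% and 32.8% of all tested. With the component removed and equal totals 39 rose and 83 fell, 26.0% and 55.3%, against 9.90% and 59.1%. In each scaling the rising share of members was above that of all tested. The median of the members relative to that of all tested was 0.36, 0.54 and 0.07 in the same order.

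TRINITY_DN36923_c2_g1 rose most in leaf at 96 h, from 8.28 and 8.55 in the controls to 1590 and 1228 in drought (log2 fold change 7.21, SE 0.41, limma adjusted p = 7.39e-05). At 24 h it had gone from 4.31 and 3.21 to 57.1 and 22.8 (log2 fold change 2.97, SE 0.41, limma adjusted p = 0.00415). TRINITY_DN45077_c0_g1 rose again, from 73.1 and 85.2 to 6562 and 7451 (log2 fold change 6.45, SE 0.21, limma adjusted p = 2.88e-05). Both rises were called at each scaling.

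TRINITY_DN47120_c0_g1 fell most at 96 h, from 28.5 and 31.4 in the leaf controls to 1.82 and 0 in drought (log2 fold change −4.20, SE 0.47, limma adjusted p = 0.000659). TRINITY_DN44161_c1_g1 was at 65.1 and 41.5 in the controls and at 0 and 12.7 in drought (log2 fold change −3.84, SE 1.14, limma adjusted p = 0.0288). This second call was lost in several alternatives, with an adjusted p of 0.126 and 0.0840 without leaf 96 h control replicate 1 and 2, of 0.0541 to 0.0558 without any 1 of the 24 h leaf libraries, and of 0.0589 with median-ratio size factors. In root its 24 h controls were far apart, at 59.2 and 0. Another identifier of its component, TRINITY_DN44161_c1_g2, had a root mean of 3494. Its root drought to control ratio was 0.84 at 24 h and 0.23 at 96 h. TRINITY_DN40073_c0_g2, second by rank, was listed at 0 in both 24 h leaf controls and stood at 12.5 and 10.8 in 24 h drought, at 4.34 and 6.99 in the 96 h controls and at 0 and 11.1 in 96 h drought. Its leaf difference passed neither at 24 h (limma adjusted p = 0.0543) nor at 96 h (limma adjusted p = 0.509). At 96 h its drought libraries lay on either side of the controls, so the direction depended on which was used. The 24 h difference passed when either 96 h drought library was left out of the fit (limma adjusted p = 0.000190 and 0.000210). In all, 6 members were listed at 0 in both leaf 96 h drought libraries.

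**Figure D3:**
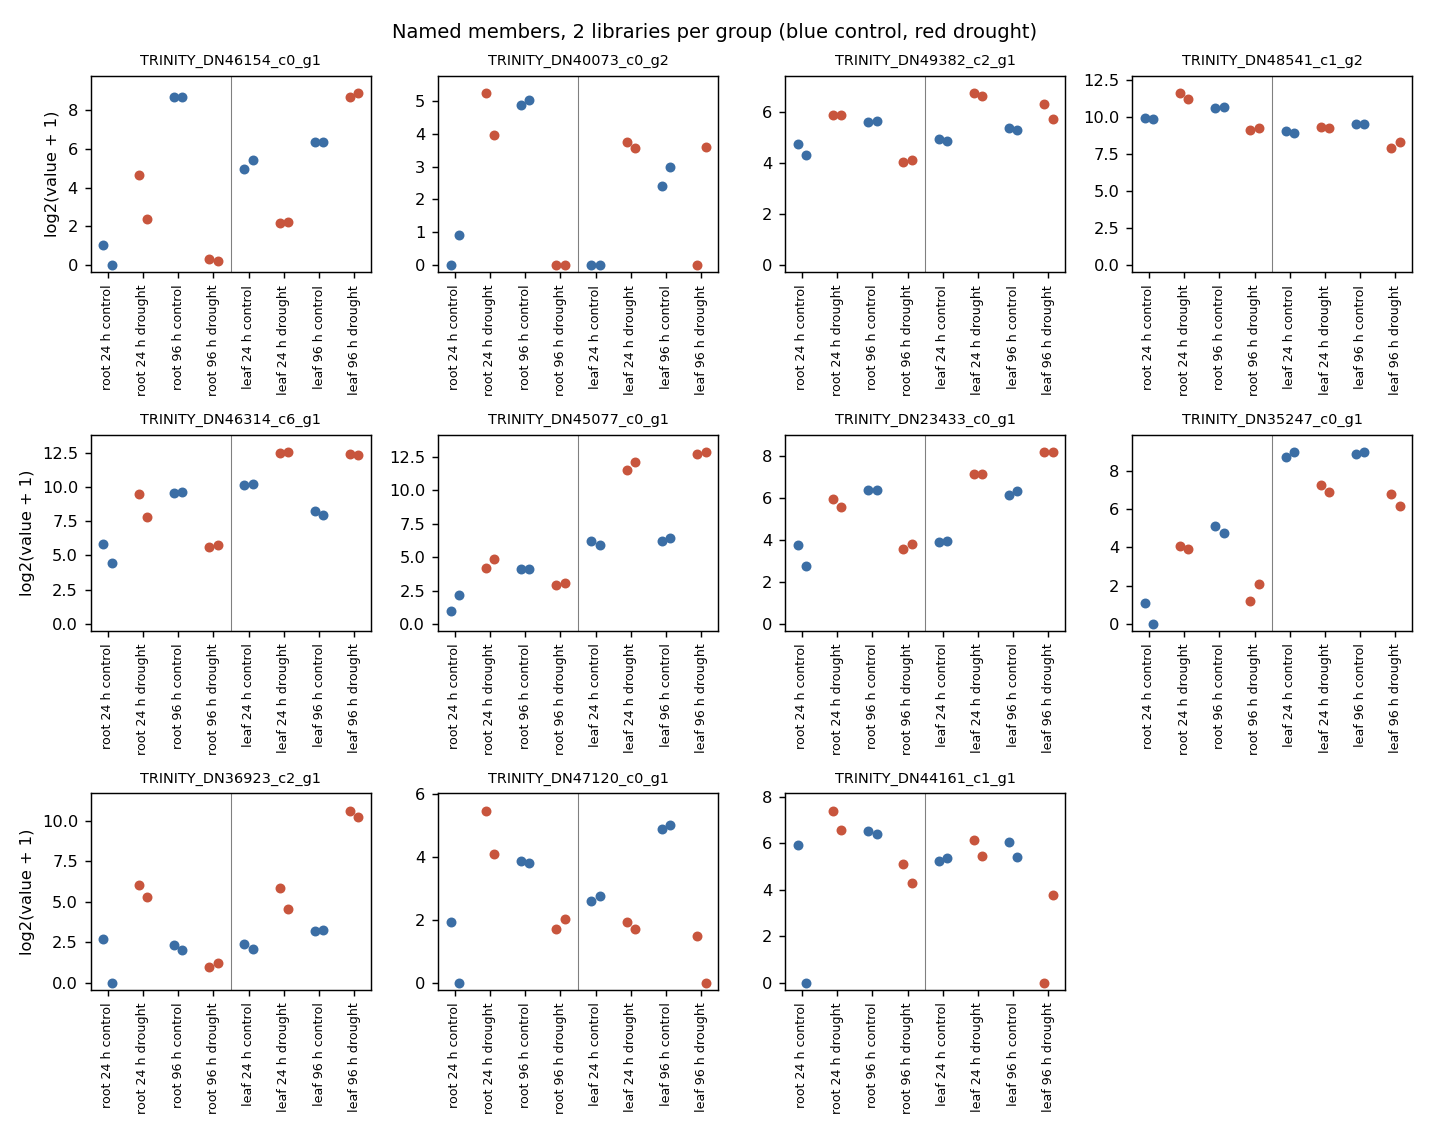
Values of 11 named members (all but TRINITY_DN46314_c6_g3) in every library as log2(value + 1), blue for control and red for drought, root left of the line and leaf right of it. The members share the root pattern by choice and differ in leaf, where TRINITY_DN45077_c0_g1 rose at both times and TRINITY_DN35247_c0_g1 fell at both.

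Taking both leaf times together, 40 members rose at 24 h and again at 96 h, 26.7% against 4.61% of all tested transcripts and 6.65% of those at the level minimums. The order seen in root, a rise at 24 h and a fall at 96 h, was called in leaf for 10 members, 6.67% against 2.86% of all tested and 4.44% at the level minimums. A further 14 fell at both times, 9.33% against 10.6% and 11.8%, and 5 fell and then rose, 3.33% against 0.901% and 1.29%. Of the rest, 40 passed as falls at 96 h alone, 26.7% against 28.8% of all tested, and 14 as rises at 96 h alone, 9.33% against 11.4%, both near the background. At 24 h alone 9 passed as rises, 6.0% against 3.73%, and 1 as a fall, 0.667% against 4.4%. At neither time did 17 pass, 11.3% against 32.7%. The leaf fold changes of the 150 members had a Spearman rho of 0.51 between the times, over different libraries of 1 fit. Root and leaf fold changes had one of 0.30 at 24 h and −0.06 at 96 h. The root values chose and ranked the members, which limits their range. The rhos with root and the root medians that follow are thus a description. The median root rise at 24 h, on the log2 scale, was 2.32 among those that rose at both leaf times and 1.71 among those that fell at 96 h alone.

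**Figure D4:**
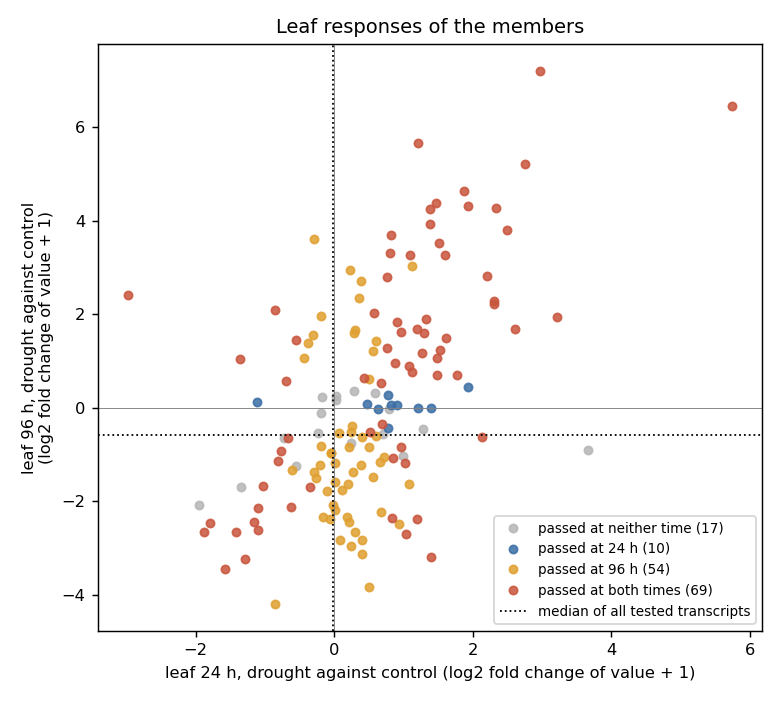
Leaf log2 fold change of each of the 150 members at 24 h (horizontal) and 96 h (vertical), coloured by the times at which limma adjusted p was under 0.05. Dotted lines are the medians of all 28176 tested transcripts, −0.02 and −0.59. Of the 69 members that passed at both times, 40 rose at both.

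The difference between the leaf responses was also tested directly. The response at 96 h was lower than that at 24 h in 64 members, or 42.7%, and higher in 36, or 24.0%, against 30.5% and 14.6% of all tested transcripts (limma, adjusted p under 0.05). The median difference was −0.66 for members and −0.50 for all tested. With median-ratio size factors 38 members were lower and 51 higher, and with TRINITY_DN47470_c0 removed and equal totals 99 were lower and 23 higher, so the direction of the majority followed the scaling. For all tested transcripts the lower share was 20.6% and 52.9% in those scalings, and the higher share 21.2% and 8.32%.

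TRINITY_DN46154_c0_g1 was among those with a higher response at 96 h. Its leaf controls stood at 82.0 and 81.6 at 96 h and its drought libraries at 407 and 473, so it rose there (log2 fold change 2.41, SE 0.16, limma adjusted p = 0.000122) after its fall at 24 h. Leaf and root of this transcript thus moved in opposite directions at both times. TRINITY_DN48541_c1_g2, the most abundant in root, had leaf controls at 528 and 490 and drought at 628 and 600 at 24 h, a difference that did not pass (limma adjusted p = 0.217). It passed without leaf 96 h drought replicate 1 or 2 (limma adjusted p = 0.0464 and 0.0465) and with TRINITY_DN47470_c0 removed (0.0165). At 96 h its controls were at 720 and 735 and its drought libraries at 242 and 320 (log2 fold change −1.38, SE 0.14, limma adjusted p = 0.000436).

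Unstressed leaf changed with time in the same members. Between the controls, 60 members were higher at 96 h than at 24 h, 40.0% against 12.8% of all tested, and 16 were lower, 10.7% against 13.9%. Their median log2 difference was 0.53, against 0.00 over all tested. This comparison shares the 24 h leaf controls with the 24 h response, so the 2 results are not independent. Members higher at 96 h numbered 34 and 35 when leaf 24 h control 1 and 2 were left out in turn, and 34 and 33 when the 96 h controls were, with 4.31% to 6.34% of all tested transcripts higher and a member median of 0.52 to 0.54. The member median in the 96 h controls was 23.6 and 24.9, above both 24 h controls.

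Within droughted leaf, 65 members were higher at 96 h than at 24 h, 43.3% against 14.7% of all tested, and 47 were lower, 31.3% against 36.5%. The majority again turned with the scaling, with 82 members higher and 25 lower under median-ratio size factors, against 22.2% and 24.2% of all tested, and 28 higher and 80 lower with TRINITY_DN47470_c0 removed, against 7.89% and 55.7%. The 80 were 53.3% of the members, near that background. Without leaf 24 h drought replicate 2 the lower count was 29, or 19.3% against 27.4%. The member median was 24.4 and 26.9 in 96 h drought, above both 24 h drought libraries.

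**Figure D5:**
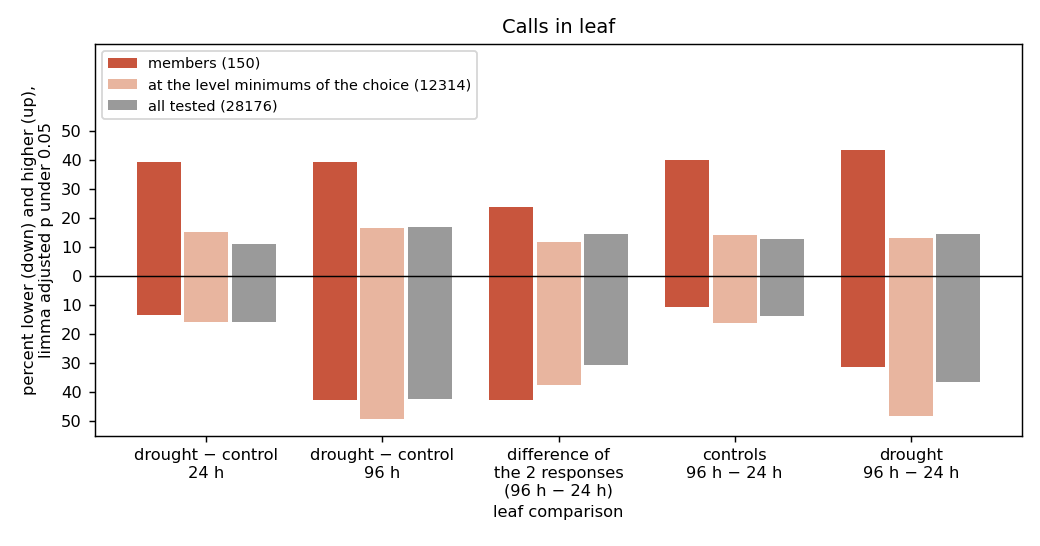
Percent of transcripts called higher (up) and lower (down) in 5 leaf comparisons at the deposited scaling, for the 150 members, for the 12314 tested transcripts that pass the level minimums and for all 28176 tested. Members were called higher more often than all tested in each comparison, for example 39.3% against 11.2% at 24 h.

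The summed level in leaf rested on few members. It was 9494 and 9350 in the 24 h controls, 24936 and 27861 in 24 h drought, 8661 and 8824 in the 96 h controls and 32382 and 34743 in 96 h drought. Without 2 members of the component TRINITY_DN46314_c6 it was 5719 and 5501, 10455 and 11279, 7913 and 8190, and 17322 and 18409. Those 2 members share a component and may share reads. TRINITY_DN46314_c6_g1 was at 1128 and 1187 in the 24 h leaf controls and at 5606 and 6025 in drought (log2 fold change 2.33, SE 0.11, limma adjusted p = 0.000220). At 96 h it was at 303 and 245 in the controls and 5376 and 5219 in drought (log2 fold change 4.27, SE 0.11, limma adjusted p = 1.73e-05). Its controls were lower at 96 h than at 24 h (log2 difference −2.08, limma adjusted p = 0.000275), while the difference between its drought groups did not pass (−0.13, SE 0.11, limma adjusted p = 0.369). TRINITY_DN46314_c6_g3, named after its values were seen, was at 2647 and 2662 in the 24 h leaf controls and 8875 and 10556 in drought, and at 445 and 389 in the 96 h controls and 9684 and 11114 in drought. In root it had the chosen pattern at a lower level, at 67.2 and 38.2, then 770 and 285 at 24 h, and 451 and 457, then 61.5 and 66.9 at 96 h.

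The leaf to root ratio of the members differed between conditions. It holds the root values that chose the members and the leaf 96 h drought libraries dominated by TRINITY_DN47470_c0. The parts of root, leaf and scaling in it were not tested. The leaf mean was above the root mean in 109 members in the 24 h controls and in 112 under 96 h drought, but in 50 under 24 h drought and in 51 in the 96 h controls. The median log2 ratios of leaf to root were 0.87, 1.45, −0.59 and −0.38 in that order, and 0.11, −0.80, −0.11 and −0.13 for transcripts at the level minimums. The choice set root low against the other treatment in the 24 h controls and in 96 h drought, so these differences partly restate it. How often leaf lay above root was not counted for other transcripts.

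Apart from leaving out 1 component, the choice did not use how identifiers group into components. The members came from 148 assembly components, and 4 members shared a component with another. Their components held 218 further identifiers, of which 40 passed the level minimums. Of these 40, from 28 components, 11 met the 24 h root condition, or 27.5% against 14.2%, and 7 met the 96 h condition, or 17.5% against 14.0%. Both conditions were met by 2 of the 40, against 1.84% of transcripts at the level minimums. The 2 ranked below the limit of 150, as any ranked higher would be a member and not among the 40. Identifiers of 1 component have related sequence, and reads may be divided between them.

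The reverse root pattern, with directions exchanged and the same limits, was met by 163 transcripts, of which the top 150 were taken for comparison. In leaf at 24 h, 6 of those rose and 89 fell, where 59 members rose and 20 fell. The reverse shares were 4.0% and 59.3%, against 11.2% and 15.9% of all tested. At 96 h 25 rose and 79 fell, where 59 members rose and 64 fell. The reverse shares were 16.7% and 52.7%, against 16.9% and 42.2% of all tested. The leaf controls were higher at 96 h for 8 of the reverse set and lower for 74, against 60 and 16 of the members. Those were 5.33% and 49.3% of the reverse set, against 12.8% and 13.9% of all tested. At 24 h the leaf calls of each set thus lay mostly in the direction of its root choice. At 96 h both sets had more falls than rises at the deposited scaling, as did all tested transcripts. The members' falls, 42.7%, and the reverse set's rises were near the shares of all tested. The difference between the sets was not tested.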

How the data were processed

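Total RNA from root and leaf was enriched for polyadenylated molecules and sequenced from both ends with a strand-marking kit, per the labels' protocols. The submitters' processing notes name FastQC 0.11.5, Trimmomatic 0.35, RSEM and edgeR, with no role. The sources used here do not give the assembler, aligner or filters. The authors deposited 1 signal per transcript and library. This signal is TPM times a TMM factor: with each library rescaled to 1000000, 100% of the values above 0 and below 0.5 fell on steps of 0.01, within 0.12 of a step. Of 18 samples, the 2 from stem were left out.

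The members and lists were chosen with earlier results of these data known. The leaf test used limma 3.58.1 (R 4.3.3) on log2(value + 1) with 1 coefficient for each of the leaf groups, trended robust variance moderation and adjustment by Benjamini and Hochberg over 28176 transcripts that reached 1 in 2 or more of 8 libraries. It was tested on data simulated without a shift in library composition. That simulation does not cover the leaf 96 h drought libraries dominated by TRINITY_DN47470_c0. The pseudocount understates changes of low transcripts. P-values measure the spread between these biological replicates. Alternatives were pseudocounts of 0.1 and 5, no filter or a value of 1 in all 8 libraries, median-ratio size factors, removal of TRINITY_DN47470_c0 with equal totals, a replicate block, and each library left out. Named were the first 2 members and the last, the first transcript left out, the 2 with the highest root mean and, for each leaf response, the 2 largest called rises and falls whose groups did not overlap and whose higher group averaged 10 or more.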

Additional observations from a re-analysis of the deposited data

Results flagged for a closer look

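The leaf response differed between 24 h and 96 h in 64 members that were lower and 36 that were higher at 96 h (limma interaction, adjusted p under 0.05). These were 42.7% and 24.0% of the members, against 30.5% and 14.6% of all tested transcripts and 37.6% and 11.7% of those at the level minimums. With median-ratio size factors the majority turned, to 38 lower and 51 higher, and with TRINITY_DN47470_c0 removed 99 were lower and 23 higher. Among the named members, the difference of the log2 fold changes, 96 h minus 24 h, was 5.38 for TRINITY_DN46154_c0_g1, 4.24 for TRINITY_DN36923_c2_g1 and 1.95 for TRINITY_DN46314_c6_g1. It was −3.35 for TRINITY_DN47120_c0_g1, whose call was lost at a pseudocount of 0.1 (limma adjusted p = 0.0793). It was −1.65 for TRINITY_DN48541_c1_g2, −1.28 for TRINITY_DN23433_c0_g1 and −1.08 for TRINITY_DN49382_c2_g1, the last member by rank. This last call was lost with median-ratio size factors (limma adjusted p = 0.241), without the filter (0.0607) and when any 1 of the 24 h leaf libraries or 96 h leaf controls was left out (0.0555 to 0.0775). Each difference compares 2 libraries per group, and both leaf 96 h drought libraries were dominated by TRINITY_DN47470_c0, whose part in these differences was not tested.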

How the results depend on the processing

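With TRINITY_DN47470_c0 removed and equal totals, 39 members rose in leaf at 96 h, the response was higher at 96 h in 23 and lower in 99, and in droughted leaf 28 were higher and 80 lower at 96 h; the conditions were met by 129 transcripts and the reverse ones by 357. With median-ratio size factors 38 members had a lower response at 96 h and 25 were lower in droughted leaf. With v as value plus 5, 83 members and 101 transcripts in all met the conditions, and with limits of 2 and 0.5 times, 95 and 109. With single libraries left out, leaf rises at 24 h ranged from 33 to 77 and falls from 7 to 25, members higher in the 96 h leaf controls from 33 to 84, members lower in 96 h droughted leaf from 29 to 53, and transcripts that met the conditions from 222 to 447. The leaf change at 96 h of TRINITY_DN40073_c0_g2 ranged from −2.71 to 0.88 (main −0.91, limma adjusted p = 0.509). With the component removed, the change of TRINITY_DN49382_c2_g1 at 96 h was −0.16 and the difference between times of TRINITY_DN45077_c0_g1 was −0.36. The cause was not tested. A group left with 1 library was assumed to vary like the others. The other 150 recomputed counts stayed within 1.5 times.

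With the replicate block, 54 members rose and 16 fell in leaf at 24 h, 36.0% and 10.7%, against 9.34% and 13.8% of all tested. At 96 h 60 rose and 62 fell, 40.0% and 41.3%, against 16.3% and 41.0%, so the falls were near the background. Same-numbered deviations correlated at −0.03 to 0.0046 between leaf groups, so no shared replicate effect was seen. This cannot show whether same-numbered samples were paired in the design. The block moved no count by over 1.5 times. Read depth is unknown and limits what a value of 0 shows.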

Other observations

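The leaf response at 96 h varied with the root rank, which is given as a description of a list ordered by root values, with groups chosen after the data were seen. Of all tested transcripts 16.9% rose and 42.2% fell. Among the first 75 members 39 rose in leaf at 96 h (52.0%) and 25 fell (33.3%), with a median log2 fold change of 0.71. Among the next 75, 20 rose (26.7%) and 39 fell (52.0%), with a median of −0.63. Among the 77 transcripts that met the root conditions but ranked after the members, 12 rose (15.6%) and 46 fell (59.7%), with a median of −0.77, so that their rises were near the background.

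The order of these 3 groups was the same in both other scalings, while the balance within them was not. With median-ratio size factors their rises were 41, 28 and 17 and their falls 17, 27 and 32, against 23.7% and 32.8% of all tested. With TRINITY_DN47470_c0 removed and equal totals their rises were 28, 11 and 3 and their falls 32, 51 and 63, against 9.90% and 59.1%. At 24 h and the deposited scaling the leaf counts were 37 rises and 11 falls, 22 and 9, and 21 and 8, against 11.2% and 15.9% of all tested. The change of the leaf controls between the times had medians of 0.54, 0.51 and 0.59 in the 3 groups, against 0.00.

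The 100 members that still met the root conditions with TRINITY_DN47470_c0 removed had 41 rises and 14 falls in leaf at 24 h, against 11.2% and 15.9%, and 43 rises and 37 falls at 96 h, against 16.9% and 42.2%, at the deposited scaling.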
